A study of Mus musculus with 13 samples.

Results

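The genes described here are 10 members of the *Bex* and *Tceal* family of small X-linked genes, *Bex1*, *Bex2*, *Bex3*, *Bex4*, *Tceal1*, *Tceal3*, *Tceal5*, *Tceal6*, *Tceal8* and *Tceal9*. They were read by symbol from P4 (postnatal day 4) skin count files that list 49315 genes. The members were chosen by their counts in WT against DKO skin, with earlier results of these libraries known. That difference is therefore given below as a description, and no test of it is reported for any member. Of the 10 genes, 7 had enough counts to enter the fit across all genes, which covered 20168 genes. *Bex2*, *Bex4* and *Tceal6* did not.

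RNA-Seq was done on full-thickness back skin of 3 WT littermates and of 3 mice labelled DKO, whose genotype is K14Cre+Kctd1fl/flKctd15fl/fl, all at P4 and with 1 library per mouse. The comparison asks what the loss of KCTD1 and KCTD15, a pair of related transcriptional regulators, in keratinocytes changes in the RNA of the skin. The paper describes the inactivation by Cre under the *K14* promoter as selective for keratinocytes. Which other cells of whole skin carried the deletion cannot be read from these counts. The series also holds 7 epidermis libraries of mice aged 3 weeks, whose files list a count of 0 for every gene, and nothing is reported from them. Counts on genes came to 14836798, 17643043 and 17470709 for WT replicates 1 to 3. For DKO replicates 1 to 3 they came to 11263863, 14950538 and 15050299. A normalized count below is the count divided by the effective library size (TMM) and multiplied by the mean of these sizes. The floor of detection was set at 3 counts, which is between 0.17 and 0.266 CPM (counts scaled to library size) in these libraries, and limits of this kind cover counting error only.

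The labelled tissue was checked against its markers. *Krt10* of suprabasal keratinocytes had a mean of 3328 TPM (a level per length, scaled to the same total in every library), *Krt71* of the inner root sheath of the hair follicle had 4185 TPM, and *Col1a1* of dermal fibroblasts had 4050 TPM. A call below means an adjusted p under 0.05 with a log2 fold change over 1 in either direction, and calls are read for genes other than the members. Over all genes in the fit, members included, these thresholds were passed by 14 of 20168 genes, or 0.0694%, and by 8 genes, or 0.0397%, in the direction of higher in DKO, and DESeq2 called 152 of 18389 genes, or 0.827%. The normalized counts of *Kctd1* were 443, 410 and 442 in WT skin and 506, 985 and 735 in DKO skin, and those of *Kctd15* were 736, 737 and 763 in WT skin and 1131, 1509 and 1325 in DKO skin. Both floxed genes stood higher in all 3 DKO libraries than in all 3 WT libraries without being called (adjusted p = 0.342 and 0.106 in the edgeR quasi-likelihood fit). In DESeq2 the adjusted p was 0.0747 for *Kctd1* and 0.000591 for *Kctd15*. There *Kctd15* missed a call only by its log2 fold change of 0.81. Counts over a whole gene include the exons outside the deleted part and do not check the deletion, so the directions below follow the labels. *Xist*, the RNA of the inactive X chromosome, was high in WT replicate 1 and DKO replicate 3 (56783 and 56894 normalized counts) and between 9.93 and 122 in the other 4 libraries, which held the counts of the Y-linked genes. Each group thus held 1 library of the first kind and 2 of the second, and the labels give no sex.

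*Bex* stands for brain expressed X-linked, and *Tceal* for transcription elongation factor A-like. Both groups encode small proteins that are abundant in neural tissue, and the *Tceal* genes are named for a resemblance to the elongation factor TFIIS. *Bex3*, also called *Nade*, encodes a partner of the neurotrophin receptor p75, and *Bex1* is known from the nervous system and from regenerating muscle.

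All 10 genes lie on chromosome X of GRCm38 between positions 135208687 and 136711478, a span of 1503 kb, and 10 of the 10 have their whole coding sequence in 1 exon. The encoded proteins run from 104 amino acids for *Tceal9* to 200 for *Tceal3*, *Tceal5* and *Tceal6*. The family also shared a feature of its promoters that the choice of members did not use. The RefSeq promoter windows of GRCm38.p6, which hold 250 bases before and 50 after a start site, were searched on both strands for TGACG followed after 7 or 9 bases by CACGTG. These letters were chosen after the promoters of the family had been seen, so their share is a description and no test. They stood in 25 of 32851 windows (0.076%), which belong to 23 of 27025 genes, and 8 of these genes are members. CACGTG alone stood in 7.15% of the windows and TGACG alone in 20.812%. Outside the family the element stood on chromosome X at *Armcx1*, *Armcx4* and *Armcx6*, 3 genes of the neighbouring *Armcx* group, and at *B230119M05Rik*. The remaining genes that hold it lie on other chromosomes, with *E2f3*, *Ilk*, *Ubap2*, *Vps33a*, *Marchf8* and *Zfp459* among them.

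The 30 bases around the element are printed 5′ to 3′ on the strand of the gene, because they are what the promoters have most plainly in common. Capitals mark the letters that match TGACG and CACGTG. Of the 8 complete matches, 6 have 7 bases between TGACG and CACGTG, and *Bex3* and *Tceal1* have 9. With spacings of 0 to 20 bases other than these, 0 members matched. *Tceal9*, and *Tceal7*, a family gene that is not among the 10, each lack 1 of the 11 letters, and 0.664% of windows hold either all 11 letters or all but 1. In *Bex2* these letters were found in neither form.
Bex1, chrX:136215505-136215534, minus strand: ggcttcTGACGcaagtggCACGTGactagc
Bex4, chrX:136138969-136138998, plus strand: ggcttcTGACGcaagtggCACGTGactagc
Tceal5, chrX:136203888-136203917, minus strand: cactggTGACGttcctgtCACGTGatcagg
Tceal8, chrX:136172223-136172252, minus strand: cattgaTGACGcgatcctCACGTGaccagc
Tceal6, chrX:135210690-135210719, minus strand: ctagggTGACGctttgctCACGTGactggc
Tceal3, chrX:136666360-136666389, plus strand: ctcgggTGACGcggtgttCACGTGaccggc
Bex3, chrX:136270261-136270290, plus strand: ggcagTGACGcagggccctCACGTGacccg
Tceal1, chrX:136707962-136707991, plus strand: agctgTGACGcgctcccctCACGTGaccag
Tceal9, chrX:136245070-136245099, plus strand: cactggTGACGtagatctCAtGTGaccagg
Tceal7, chrX:136223963-136223992, plus strand: ggaagaTGACataatcctCACGTGattaga

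*Tceal9* was the most abundant member by level per length, with a mean of 129 ± 21.0 TPM in WT skin and 144 ± 25.7 TPM in DKO skin (SD, n = 3 each). *Bex3* came second with 48.1 ± 4.51 and 62.8 ± 20.4 TPM, and *Tceal8* came next with 25.7 ± 0.754 and 27.5 ± 5.67 TPM. Over the 6 libraries the TPM ranges of these 3 genes did not touch one another, at 115 to 160, 43.5 to 86.0 and 22.8 to 33.8. Together they made up most of the family's RNA by this measure, with 58.3%, 23.7% and 11.4% of the mean TPM summed over the members.

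Below them, *Bex1* came next by its mean in both genotypes, and its distance from the members below it depended on the genotype. In WT skin *Bex1* had 2.98 ± 0.324 TPM, and its range of 2.61 to 3.23 lay inside the range of 1.60 to 3.31 TPM of *Tceal1*, the next member. *Tceal5* followed with 1.36 ± 0.567 TPM, *Bex2* with 0.938 ± 0.202 TPM and *Tceal3* with 0.738 ± 0.398 TPM, and these neighbours overlapped in WT libraries as well. *Bex4* and *Tceal6* were listed at 0 in every WT library. In DKO skin *Bex1* had 15.5 ± 2.92 TPM, with a range of 13.4 to 18.8 TPM that lay below *Tceal8* and above *Tceal5* at 3.22 ± 0.857 TPM and *Tceal1* at 2.77 ± 0.289 TPM. The ranges of *Tceal5* and *Tceal1* overlapped in DKO skin. The TPM of the 10 genes summed to 196, 199 and 238 over the WT replicates and to 266, 244 and 263 over the DKO replicates. *Bex1* accounted for 1.64%, 1.55% and 1.10% of that sum in WT skin and for 7.08%, 5.83% and 5.10% in DKO skin. Without *Bex1* the sums were 193, 196 and 236 TPM in WT skin and 247, 230 and 250 TPM in DKO skin, and the groups then overlapped. The stacked plot of TPM by library shows this make-up.

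**Figure D1:**
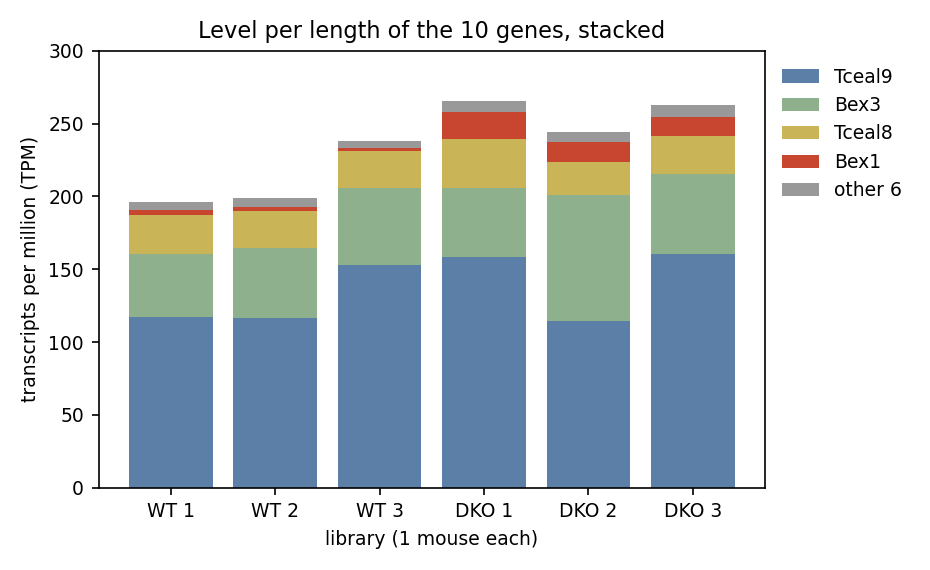
Level per length in TPM of the 10 genes, stacked, in each of the 6 P4 libraries; "other 6" joins *Tceal1*, *Tceal3*, *Tceal5*, *Tceal6*, *Bex2* and *Bex4*. *Tceal9* was the largest block in each library, and the *Bex1* block went from at most 3.23 TPM in WT skin to at least 13.4 TPM in DKO skin.

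*Bex1* (ENSMUSG00000050071, minus strand, chrX:136213972-136215513) was the member in which the genotypes stood farthest apart. Its counts were 19, 21 and 18 in the WT replicates, taken in order from 1 to 3, and 77, 88 and 77 in the DKO replicates, which are normalized counts of 19.4, 17.8 and 15.4 against 101, 97.1 and 76.7. The 3 WT mice lay close together, the 3 DKO mice lay close together, and the lowest DKO library was far above the highest WT library. The means were 17.5 ± 2.00 and 91.7 ± 13.2 normalized counts (SD, n = 3 each), a ratio of 5.23 and a log2 fold change of 2.38 (standard error, SE, 0.267). With 1 library left out at a time, the log2 fold change ran from 2.28 to 2.5.

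*Bex4* (ENSMUSG00000047844, plus strand, chrX:136138996-136140443) has a promoter and parts of its transcript in common with *Bex1*. It had no count in any WT library, which allows for up to 0.202, 0.17 and 0.172 CPM in WT replicates 1 to 3, and it had 0, 2 and 6 counts in DKO replicates 1 to 3. Only DKO replicate 3 was above the floor of 3 counts, so no fold is given. The promoters of the pair are nearly the same, with 288 of 294 aligned bases identical (98.0%), and the 250 bases before each start site are shown for that reason, 5′ to 3′ on the strand of the gene, with the 6 bases at which they differ in capitals.
Bex1, chrX:136215514-136215763, minus strand: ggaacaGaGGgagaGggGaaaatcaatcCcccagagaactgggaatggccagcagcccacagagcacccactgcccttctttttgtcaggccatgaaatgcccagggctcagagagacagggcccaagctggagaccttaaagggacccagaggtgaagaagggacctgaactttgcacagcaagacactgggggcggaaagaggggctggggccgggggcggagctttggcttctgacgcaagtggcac
Bex4, chrX:136138746-136138995, plus strand: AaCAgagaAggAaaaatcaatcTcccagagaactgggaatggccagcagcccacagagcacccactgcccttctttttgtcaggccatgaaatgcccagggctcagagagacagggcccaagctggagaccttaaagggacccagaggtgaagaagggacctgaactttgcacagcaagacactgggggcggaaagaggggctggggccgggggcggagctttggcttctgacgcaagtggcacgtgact

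The transcripts of *Bex1* and *Bex4* share sequence too. Of the 150-base windows of *Bex1* transcripts, 7.9% also occur in *Bex4*, and 15% of the windows of *Bex4* occur in *Bex1*. How the counting treated reads that fit both genes is not given in the sources used here, and the 8 counts of *Bex4* cannot be told apart from reads of *Bex1* that were placed there.

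*Bex3* (ENSMUSG00000046432, plus strand, chrX:136270253-136271978), the p75 partner, had normalized counts of 214, 228 and 254 in WT skin and 209, 481 and 259 in DKO skin. DKO replicate 2 stood alone at the top, and the other 2 DKO libraries lay within or next to the WT range, so the groups overlapped. The log2 fold change was 0.45 (SE 0.279). *Bex2* (ENSMUSG00000042750, minus strand, chrX:136066564-136068236), which shares 84.8% of 263 aligned promoter bases with *Bex3*, had 4, 6 and 4 counts in WT skin and 0, 2 and 1 counts in DKO skin. Each DKO library was below each WT library, which was so for 5.96% of all genes tested, a set that *Bex2* did not enter. Each DKO count was under the floor of 3 counts, and the WT counts were only just above it. The pair shares few transcript windows, 1.5% of those of *Bex2* and 1.0% of those of *Bex3*.

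Among the *Tceal* genes, *Tceal5* (ENSMUSG00000054034, minus strand, chrX:136200948-136203876), which lies close to *Bex1*, had counts of 5, 14 and 10 in WT skin and 18, 16 and 19 in DKO skin, or normalized counts of 5.10, 11.9 and 8.56 against 23.7, 17.7 and 18.9. The lowest DKO library was above the highest WT library, by fewer than 6 normalized counts. The means were 8.51 ± 3.39 and 20.1 ± 3.17 normalized counts (SD, n = 3 each), and the log2 fold change was 1.20 (SE 0.424). *Bex1* and *Tceal5* were the 2 members of the 7 fitted that did not overlap with DKO above WT, which 7.24% of all genes tested did, and the 2 with a log2 fold change over 1, which 1.69% of all genes tested had. These shares are given as background, since the choice of members used the same contrast. *Tceal5*, *Tceal3* and *Tceal6* share transcript windows with one another (8.5%, 2.1% and 10.7% of their windows), so the division of their counts is uncertain.

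The other *Tceal* genes overlapped between the genotypes. *Tceal9* had normalized counts of 615, 588 and 791 in WT skin and 744, 684 and 801 in DKO skin, with a log2 fold change of 0.16 (SE 0.154). *Tceal8* had 345, 315 and 323 normalized counts in WT skin and 393, 336 and 321 in DKO skin, with a log2 fold change of 0.10 (SE 0.147). Among the members these are the most deeply counted *Tceal* genes, at 299 to 924 counts a library, and their standard errors were the smallest among the members. *Tceal1* had 46.9, 35.7 and 22.2 normalized counts in WT skin and 34.2, 40.8 and 41.8 in DKO skin, with a log2 fold change of 0.17 (SE 0.330). *Tceal3* had 15.3, 5.09 and 18.8 normalized counts in WT skin and 10.5, 9.93 and 6.97 in DKO skin, with a log2 fold change of -0.52 (SE 0.536). WT libraries held both the highest and the lowest value of each of these 2 genes. *Tceal6* had 1 count, in DKO replicate 2. The plot of normalized counts by library sets the members side by side.

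**Figure D2:**
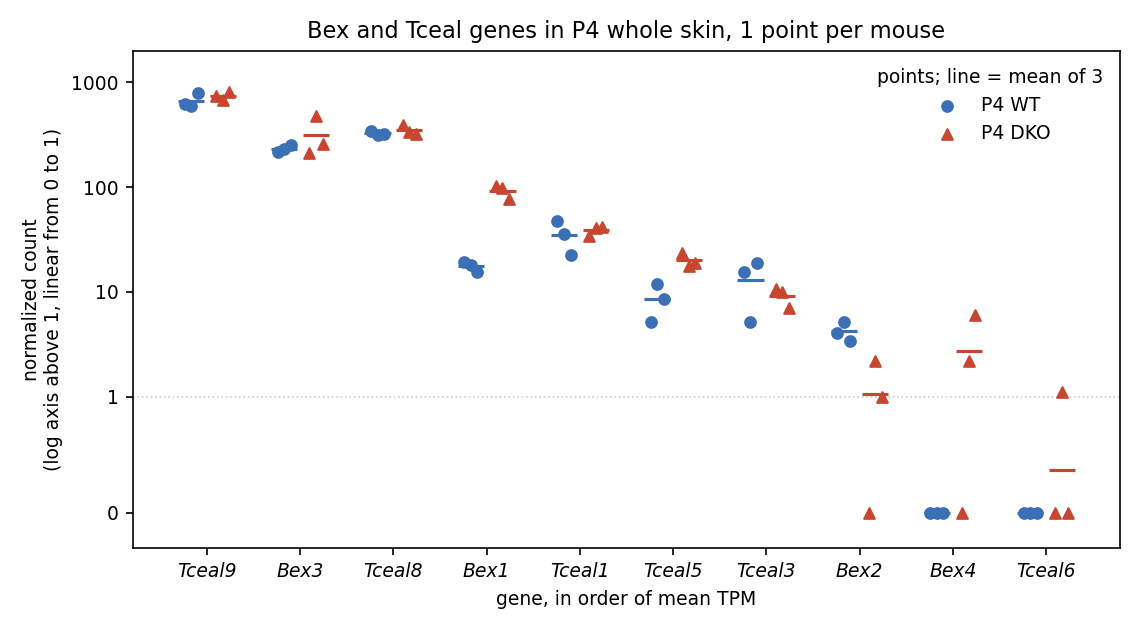
Normalized count of each member in the 3 WT and 3 DKO libraries (log axis above 1, linear from 0 to 1); points are mice and lines are means, and genes run in order of mean TPM. *Bex1* is the widest gap, with WT points at 15.4 to 19.4 and DKO points at 76.7 to 101, and *Tceal9*, *Tceal8* and *Bex3* at the left overlap between the genotypes.

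Of the 7 members in the fit, 6 had a log2 fold change above 0, as had 52.9% of all genes tested, and the median was 0.17 beside 0.02 over all genes tested. The members' difference between the genotypes was therefore uneven, from -0.52 to 2.38. In whole skin, fewer or more cells of a type and less or more RNA per cell cannot be told apart.

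The mice of both genotypes share numbers in their titles, and the members were compared within each number and within the libraries alike in *Xist*, without a test. The difference in mean log2 CPM (prior count 2) of *Bex1* was 2.10 within title number 47347 (2 WT and 2 DKO mice) and 2.57 within 40972 (1 and 1). It was 1.88 between the 2 libraries high in *Xist* and 2.44 among the 4 libraries with counts of Y-linked genes. *Bex1* was thus higher in DKO skin by more than 1.5 on the log2 scale in each of these subsets. *Tceal5* gave 1.03 and 1.28 within the title numbers, and 1.56 and 0.89 within the *Xist* subsets. Between the title numbers *Bex3* changed its sign, with 0.67 within 47347 and -0.28 within 40972, and so did *Tceal9*, with 0.30 and -0.09. *Tceal8* gave 0.00 and 0.28 within the numbers, *Tceal1* 0.01 and 0.58, and *Tceal3* -0.10 and -0.73. Between the *Xist* subsets, 3 members changed their sign. *Tceal1* gave -0.16 in the libraries high in *Xist* and 0.38 in the others, *Tceal3* gave -0.95 and 0.01, and *Tceal8* gave -0.10 and 0.19. *Bex3*, with 0.27 and 0.39, and *Tceal9*, with 0.38 and 0.06, kept it.

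*Tceal7* (ENSMUSG00000079428, plus strand, chrX:136214779-136226100), a family gene outside the list, overlaps *Bex1* on the opposite strand. The counted exons of the pair share 223 bases, which are 18.8% of those of *Bex1* and 18.3% of those of *Tceal7*. Whether the counting used the strand is not given in the sources used here, so reads in the overlap cannot be assigned to one gene with certainty. *Tceal7* had normalized counts of 429, 318 and 434 in WT skin and 1525, 285 and 613 in DKO skin. DKO replicate 1 was the highest library and DKO replicate 2 the lowest, and the log2 fold change of 1.03 (SE 0.474) did not pass (adjusted p = 0.677 in the edgeR quasi-likelihood fit). Without DKO replicate 1 it was 0.18 (adjusted p = 0.891, same fit), and over 14 alternatives the adjusted p ran from 0.0619 to 0.9999. *Bex6*, the other family gene outside the list, lies on chromosome 16 and had normalized counts of 0 in WT skin and 5.26, 1.10 and 0 in DKO skin.

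Most of the neighbours of the members on chromosome X lay near 0. Between the first and the last member the files list 66 genes, of which 56 are not members and 8 of those entered the fit. In the edgeR quasi-likelihood fit 0 of the 8 were called, 0 had an unadjusted p under 0.05, as 7.5% of all genes tested had, and DESeq2 called 0, while 3 were higher and 5 lower in DKO skin (median log2 fold change -0.07). *Arxes2*, *Tceal7* and *Bhlhb9* had the smallest p-values among them, with log2 fold changes of 0.56, 1.03 and -0.22. *Tceal5*, *Bex1* and *Tceal7* lie close together and had the 3 highest fold changes of the span, with *Tceal8* and *Tceal9* beyond them at 0.10 and 0.16. The place of *Tceal7* rested on DKO replicate 1. Without that library it stood at 0.18, below *Bex3* at 0.65 and *Tceal1* at 0.24.

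**Figure D3:**
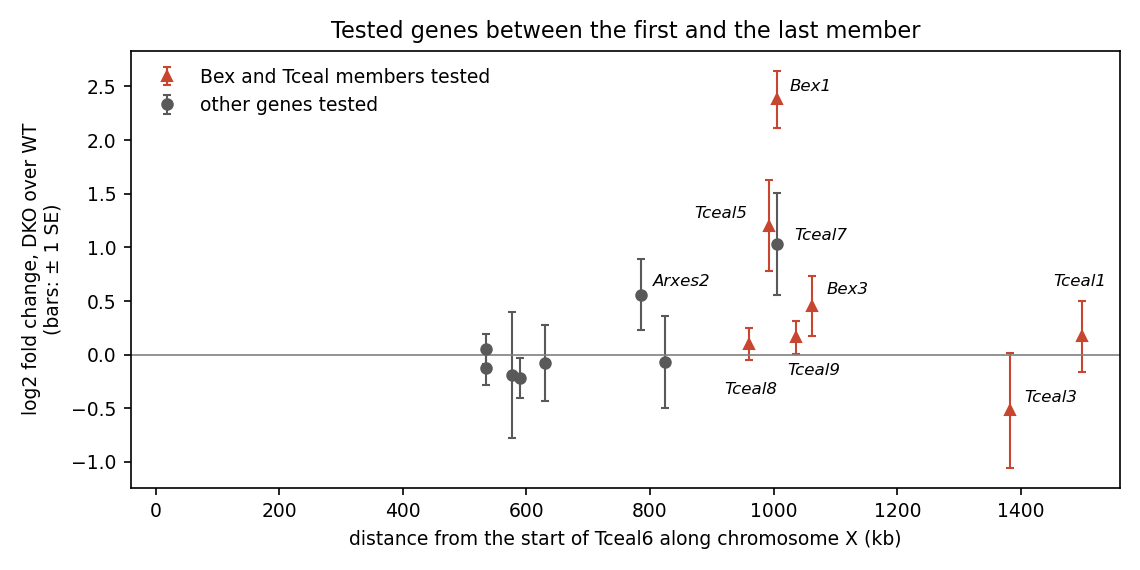
Log2 fold change of DKO over WT (bars, 1 standard error) of the 7 members and 8 other genes tested, against distance in kb from the start of *Tceal6*. *Bex1* at 1005 kb stands at 2.38, *Tceal5* and *Tceal7* beside it at 1.20 and 1.03, and the other genes between -0.52 and 0.56.

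The *Armcx*, *Gprasp* and *Arxes* genes of the same chromosome, which carry the promoter element in 3 cases, were compared as a list of 12 genes. Of 11 in the fit, 6 were higher and 5 lower in DKO skin, the median log2 fold change was 0.05, and 0 were called (0 at an unadjusted p under 0.05, and 0 by DESeq2). *Armcx4*, which holds the element, had normalized counts of 324, 320 and 348 in WT skin and 544, 281 and 365 in DKO skin, with a log2 fold change of 0.26. *Armcx2*, the most abundant gene of the list at 22.4 TPM, had a log2 fold change of 0.16. DKO replicate 1 was the highest library for both.

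Neurotrophins and their receptors, to which *Bex3* is tied through p75, were 10 listed genes with 9 in the fit. 6 were higher and 3 lower in DKO skin (median log2 fold change 0.13), and 0 were called by edgeR or DESeq2, with 1 at an unadjusted p under 0.05. *Ntf5*, neurotrophin 4, had a log2 fold change of -0.66, *Sort1*, sortilin, -0.14, and *Maged1*, an abundant partner of p75 at 121 TPM, 0.15, and none of these 3 passed.

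The genes of TFIIS, after which the *Tceal* genes are named, and of the elongins, another group of elongation factors, were 11 listed genes with 8 in the fit, of which 4 were higher and 4 lower with a median log2 fold change of -0.04. edgeR called 0 of them, with 1 at an unadjusted p under 0.05, and DESeq2 called 1. That gene was *Tcea3*, a TFIIS gene, which had 34.7, 39.1 and 32.5 normalized counts in WT skin and 107, 77.2 and 64.7 in DKO skin, with a log2 fold change of 1.22 (adjusted p = 0.229 in edgeR and 0.0332 in DESeq2, and 0.0326 to 0.748 over 14 alternatives). *Tcea1*, the general TFIIS gene, had -0.15, *Tceanc* -0.49, and the elongin genes *Eloc* and *Elob* -0.14 and 0.01.

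Marker genes of the cell types in which the family is known were read beside these values. Of 30 skeletal muscle fiber genes, 29 were higher in DKO skin (median log2 fold change 1.04), 26 had an unadjusted p under 0.05, edgeR called 0 and DESeq2 called 13. Their normalized counts summed to 111836, 97469 and 102504 in WT skin and to 327955, 156681 and 157055 in DKO skin, and 0 genes of the list were at 0 in all libraries. *Acta1*, skeletal actin, was the most abundant at 2111 TPM, with a log2 fold change of 1.14. *Myl1* had 0.91, and *Tnni2*, *Des* and *Actn2* had 1.23, 1.30 and 1.29. Genes of developing and regenerating muscle went the same way, with 20 of 21 higher and a median of 0.73, 12 above and 1 below at an unadjusted p under 0.05, 0 called by edgeR and 3 by DESeq2, among them *Myh8*, perinatal myosin and the most abundant at 237 TPM, with a log2 fold change of 1.37. *Chrna1*, an acetylcholine receptor subunit, had 0.86.

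The muscle sum, like *Bex1*, was higher in each DKO library than in each WT library. Relative to the WT mean, the muscle fiber sum was 3.16, 1.51 and 1.51 in DKO replicates 1 to 3, and *Bex1* was 5.77, 5.54 and 4.37. *Tceal7* was 3.87, 0.723 and 1.56. All 3 were highest in DKO replicate 1, and without that library the log2 fold change of *Bex1* was 2.29. The part of muscle RNA in the difference was not tested.

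Schwann cell genes, 16 of 16 in the fit, were higher in 12 cases with a median log2 fold change of 0.22, and 0 were called by edgeR or DESeq2, with 1 at an unadjusted p under 0.05. *Ncmap* had a log2 fold change of 0.64, and the abundant *Pmp22* (111 TPM) and *Erbb3* had 0.37 and 0.00. Of 22 markers of neurons and Merkel cells 11 were in the fit, 6 higher and 5 lower with a median of 0.06, and 0 were called by edgeR or DESeq2, with 2 above and 2 below at an unadjusted p under 0.05. *Isl1* had 17.3, 10.2 and 5.99 normalized counts in WT skin and 36.8, 37.5 and 35.8 in DKO skin, and *Stmn2* had a log2 fold change of 0.74. *Tubb3*, the most abundant at 27.3 TPM, had -0.79, *Krt8* of Merkel cells -1.85, and *Gap43* 0.06. The summed counts of these neural lists overlapped between the genotypes, with 0.736 to 1.17 of the WT mean in DKO skin for neurons and Merkel cells and 1.01 to 1.21 for Schwann cells. The hair follicle sum was 0.388, 0.976 and 0.700 in DKO replicates 1 to 3. The part of these cell types in the values of the members was not tested.

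**Figure D4:**
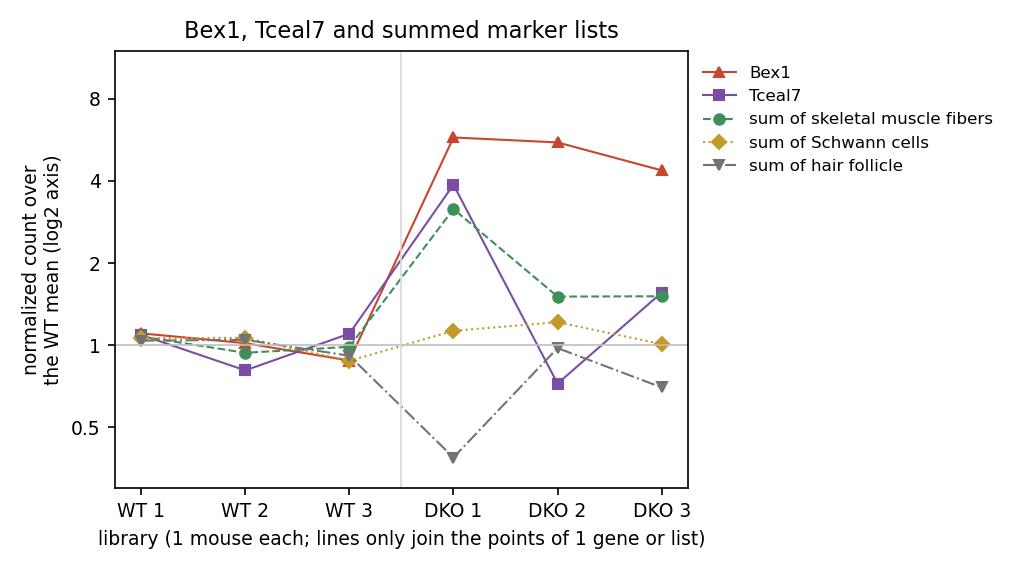
Normalized counts of *Bex1* and *Tceal7* and summed normalized counts of 3 marker lists in each library, divided by their WT mean (log2 axis). *Bex1* is at 4.37 to 5.77 in the 3 DKO libraries and peaks in DKO replicate 1. *Tceal7* and the muscle sum peak in the same library, at 3.87 and 3.16.

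The genes whose profile over the 6 libraries was most like that of *Bex1* were sought among 20027 genes with a mean of at least 10 normalized counts. Likeness was the root mean square difference of log2 CPM relative to the WT mean, so these genes share the contrast by construction and are described without a test. They were *Foxi3*, a forkhead factor of ectodermal appendages (difference of 0.411), the unnamed gene *Gm28523* (0.425), *Cd300ld*, a myeloid receptor gene (0.442), *Elavl2*, a neuronal RNA-binding protein gene (0.452), and *Sptbn5*, a spectrin gene (0.490). Some of these were near the floor of 3 counts in WT skin, where counting error weighs on the likeness. Raw WT counts were 4, 4 and 3 for *Gm28523*, 6, 4 and 9 for *Cd300ld*, and 4, 5 and 9 for *Elavl2*. *Foxi3* had 26.5, 10.2 and 19.7 normalized counts in WT skin and 118, 80.5 and 59.7 in DKO skin. As for *Bex1*, its highest library was DKO replicate 1 and its lowest DKO library was replicate 3. *Elavl2* had 4.08, 4.24 and 7.70 normalized counts in WT skin and 23.7, 45.2 and 18.9 in DKO skin, with its peak in DKO replicate 2. *Sptbn5*, the most deeply counted of them, had 85.6, 95.9 and 79.6 normalized counts in WT skin and 234, 290 and 329 in DKO skin. By Pearson correlation in place of this difference, 0 of the 5 genes were the same, and 4 were shared among the closest 50, so the list depends on the measure.

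**Figure D5:**
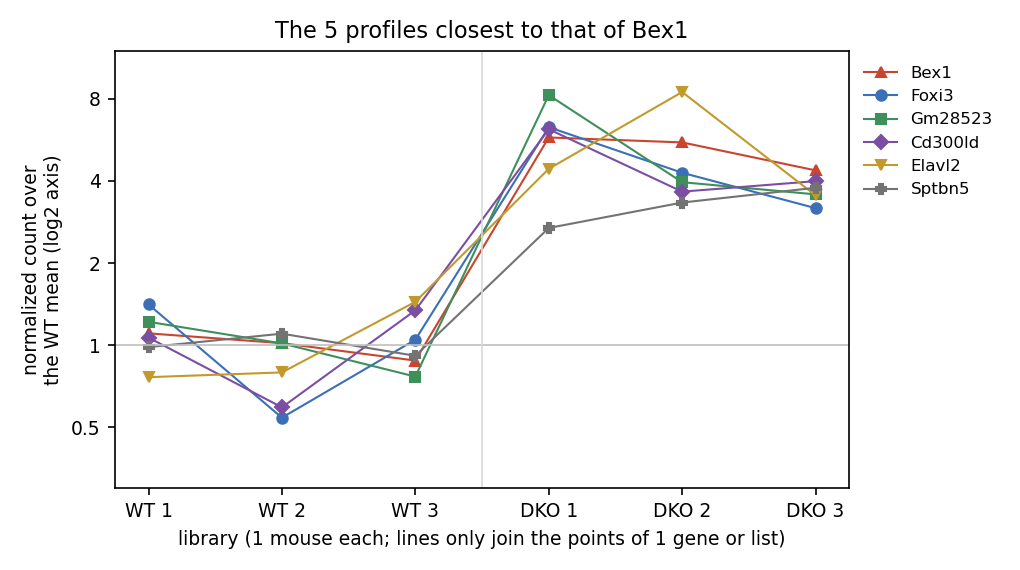
Normalized counts of *Bex1* and of the 5 genes with the closest profile, divided by their WT mean (log2 axis), in each library. The 6 genes lie between 0.542 and 1.44 in WT libraries and between 2.69 and 8.47 in DKO libraries.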

How the data were processed

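The authors depleted rRNA from total RNA, sequenced paired-end reads, used Trimmomatic 0.36 for trimming and STAR 2.5.2b for mapping to GRCm38, and counted reads per gene with featureCounts (Subread 1.5.2). The deposited values are raw counts per gene. The setting for strand and for reads that fit several genes is not given in the sources used here. Gene symbols were found for 48970 of 49315 identifiers (99.3%).

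P4 DKO (n = 3) was compared with P4 WT (n = 3) in R 4.3.3 with edgeR 4.0.16 (filterByExpr, TMM, quasi-likelihood F test, Benjamini-Hochberg adjustment over 20168 genes). A gene was called at an adjusted p under 0.05 with a log2 fold change over 1 in either direction, the thresholds of the study, which used DESeq2, run here as an alternative (version 1.42.0). The common biological coefficient of variation was 20%. The labels give each library an identifier of its own, and each was taken as 1 mouse. A permutation test of 3 mice against 3 cannot go below a two-sided p of 0.1. TPM was computed from the counts and the exon lengths in the files. In simulated counts of this comparison edgeR recovered 200 of 200 changed genes with 4 other calls among 20209 genes, and DESeq2 198 with 2 among 32561. The simulation gave every gene the same dispersion and changed only well-counted genes, by a fixed and large fold change. It therefore does not show what share of real changes either tool would find in these data.

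The members and the 16 gene lists were chosen with earlier results of these data known. The text names the members, *Bex6*, *Tceal7* and both floxed genes, in each list the 3 genes with the smallest p and the 2 with the highest mean TPM, the 3 genes with the smallest p in the chromosome X span, and the 5 genes most like *Bex1*. Some genes that this rule covers are not reported here. Lists are given by counts and medians, with no set test. Alternatives were DESeq2, RLE size factors, total counts, other count filters, library sizes without muscle genes, the title number as a block, and each library left out; DESeq2 with the block and the subsets by *Xist* were added after seeing the data. Protein sequences were not used here.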

Additional observations from a re-analysis of the deposited data

How the results depend on the processing

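The log2 fold change of *Bex1* stayed between 2.28 and 2.5 over 14 alternatives. *Tceal5* ran from 0.95 to 1.51, *Bex3* from 0.02 to 0.65, *Tceal1* from -0.09 to 0.42, *Tceal3* from -0.91 to -0.15, *Tceal8* from -0.01 to 0.16 and *Tceal9* from 0.07 to 0.30. The median of the members, 0.17, ran from 0.14 to 0.38 with libraries left out. When FPKM replaced TPM, the share of *Tceal6*, with 1 count, in the family's RNA went from 0.0122% to 0.0141%. The shares of abundant members moved as well, with *Bex3* from 23.65% to 24.07% and *Tceal9* from 58.3% to 57.96%.

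The count of genes called, 14, was 152 with DESeq2, 210 with no filter on low counts, 22 with total counts, and 2 to 36 with libraries left out. Listed genes other than members, 0 of which were called, gave 19 with DESeq2, 22 with no filter, and 0 to 1 with libraries left out (*Tubb3*, -1.44 without DKO replicate 2). The cause was not tested. With the title number as a replicate block 35 genes were called, 1 listed gene (*Acta1*) among them, and with the block in DESeq2 150 and 15. In their deviations from the group means, WT and DKO mice with the same number correlated between -0.019 and 0.23 and those with different numbers between -0.152 and -0.104. This is a hint from the data that the numbers mark something shared, and the labels do not say what they mark. Named genes outside the family that were not called passed in 35 combinations of gene and alternative, chiefly with DESeq2 or no filter on low counts, *Tcea3* among them.

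Genes near 0 changed sign. *Elob* (0.01) had -0.00 with DESeq2, RLE size factors and the block, -0.01 with at least 10 counts in every library and without muscle genes in library sizes, -0.02 with no filter and DESeq2 with the block, -0.04 with total counts, and -0.32 to 0.16 with libraries left out. *Erbb3* (0.00) had -0.01 with DESeq2 with or without the block, RLE and at least 10 counts, -0.02 with no filter and without muscle genes, -0.04 with total counts, and -0.15 to 0.12 with libraries left out. With libraries left out, *Armcx4* ran from -0.04 to 0.46, *Armcx2* from -0.11 to 0.27, *Gap43* from -0.11 to 0.23, *Car3* from -0.24 to 0.67, *Tcea1* from -0.33 to 0.09, *Cd36* from -0.49 to 0.08, *Acta2* from -0.16 to 0.16, *Eng* from -0.04 to 0.34, *Cdh5* from -0.10 to 0.11, *Uty* from -1.16 to 0.28, *Ddx3y* from -1.02 to 0.34, *Eif2s3y* from -1.03 to 0.35 and *Xist* from -8.35 to 7.81 (-0.00 with no filter). Depth limits *Bex2*, *Bex4* and *Tceal6*, which have at most 6 counts in a library.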

Other observations

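The other cell types of the skin were read from marker lists for comparison with the family. In the edgeR quasi-likelihood fit 0 genes of these lists were called. Dermal fibroblast genes were higher in DKO skin in 17 of 18 cases, with a median log2 fold change of 0.37, 4 above and 0 below at an unadjusted p under 0.05, and 1 called by DESeq2. That gene was *Dlk1*, a marker of fetal and immature mesenchyme, at 1.18, while *Pdgfra* and *Pdgfrb* had 0.43 and 0.38, and *Col1a1* and *Sparc*, the most abundant, had 0.40 and 0.29. Keratinocyte genes were higher in 12 of 17 cases with a median of 0.12, 2 above and 1 below at an unadjusted p under 0.05, and 0 called by DESeq2. *Krt1* and *Krt10* of the suprabasal layers had 0.79 and 0.48, and *Krt15* of basal cells had -0.60. Hair follicle genes were lower in 16 of 19 cases with a median of -0.21, 0 above and 3 below at an unadjusted p under 0.05, and 0 called by DESeq2. The inner root sheath keratin genes *Krt71*, *Krt73*, *Krt28* and *Krt25* had -0.73, -0.50, -0.53 and -0.57.

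Adipocyte genes were higher in 10 of 14 cases with a median log2 fold change of 0.19, and 3 had an unadjusted p under 0.05. DESeq2 called 2 of them, the adipokine genes *Retn* at 1.42 and *Cfd* at 1.09, and the lipase gene *Pnpla2* had 0.66. Without DKO replicate 1 the edgeR log2 fold changes of *Retn* and *Cfd* were 0.84 and 0.59. With the title number as a block in DESeq2, *Retn* was called and *Cfd*, at 0.97, was not. *Car3* and *Cd36*, the most abundant, had 0.41 and -0.14. Smooth muscle and pericyte genes were higher in 9 of 11 cases with a median of 0.21, 2 at an unadjusted p under 0.05, and 1 called by DESeq2, which was *Des*, a gene that the muscle lists hold too. *Smtn* and *Kcnj8* had 0.53 and 0.51, and *Acta2* had 0.06. Endothelial genes were higher in 10 of 12 cases with a median of 0.22, 2 at an unadjusted p under 0.05, and 0 called by DESeq2. *Lyve1* of lymphatic vessels had 0.73, *Pecam1* 0.34, *Vwf* 0.33, *Eng* 0.16 and *Cdh5* -0.01. Of the 5 sex-linked genes, which were split within both groups, 0 were called by edgeR (0 at an unadjusted p under 0.05, and 0 by DESeq2), with a median of -0.24, *Uty*, *Ddx3y* and *Eif2s3y* at -0.30, -0.24 and -0.24, and *Xist* at 0.00.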
